A study of Mus musculus with 12 samples.

Results

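The genes described here encode inhibitors of cyclin-dependent kinases (CDKs) in mouse bone marrow: Cdkn1b, Cdkn1c, Cdkn2a, Cdkn2b, Cdkn2c and Cdkn2d. They were taken by symbol from the deposited tables, and all 6 were found among 24444 genes. Bulk RNA sequencing of C57BL/6 marrow gave 12 libraries in 4 groups of 3. The W-old group was Hopx-wildtype and the H-old group Hopx-knockout, both labelled aged, with an age of 18 weeks, and neither overexpressed MN1. The W-MN1 group was Hopx-wildtype with MN1 overexpression and the H-MN1 group Hopx-knockout with MN1 overexpression, both with a labelled age of 16 weeks. The product of Hopx is a short homeodomain protein that lacks DNA binding of its own, and MN1 is a transcriptional coregulator that can drive myeloid leukaemia when overexpressed in mouse marrow. How MN1 was delivered, whether host cells remained in the marrow and whether a library came from a single animal are not given in the sources used here. The p-values below therefore measure the spread between libraries, which may be technical in part. MN1 status, labelled age and deposited table coincide and cannot be told apart.

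CDK inhibitors hold cells in G1 by binding the kinases that start DNA replication. The INK4 proteins, p16 (from Cdkn2a), p15 (Cdkn2b), p18 (Cdkn2c) and p19 (Cdkn2d), bind CDK4 and CDK6 and keep them from D-type cyclins, while the Cip/Kip proteins p27 (Cdkn1b) and p57 (Cdkn1c) also bind CDK2 with its E- and A-type cyclins. In marrow, p57 and p27 are known for keeping stem cells quiescent, p18 for limiting stem cell self-renewal, and p16 and p15 for acting as tumour suppressors that Polycomb proteins keep silent.

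Levels are CPM, read counts relative to the library size, with that size corrected for differences in composition by the TMM method, and libraries are named by group and replicate number. Library totals ran from 16544407 to 28409046 counts. Hopx, the deleted gene, stood at 15.0 to 35.1 CPM in W-old, at 0 to 0.141 CPM in H-old, at 11.8 to 27.04 CPM in W-MN1 and at 2.84 to 3.12 CPM in H-MN1, so knockout libraries of the MN1 experiment held more Hopx reads than those of the aged experiment. Mn1 stood at 22.2 to 41.1 CPM in the 3 H-MN1 libraries and at 30.5 CPM in W-MN1 replicate 3. It stood at 0.383 and 0.158 CPM in W-MN1 replicates 2 and 4, within the range of the old groups (0.0859 to 1.25 CPM). These libraries go against the label of MN1 overexpression, and differences of the 6 genes that use the W-MN1 group are given with and without them; those of other genes are given with them. Summed CPM of 4 Y-linked genes was 0 to 0.153 in the old groups, 234, 68.6 and 227 in W-MN1 replicates 2, 3 and 4, and 8.08 to 19.2 in H-MN1. Xist, which is made in female cells, stood at 17.6 and 2.37 CPM in W-MN1 replicates 2 and 4, at 3353 CPM in replicate 3, at 587 to 4011 CPM in H-MN1 and at 485 to 902 CPM in the old groups. The low-Mn1 libraries were thus set apart by these genes as well. The Y-linked sum also separated every MN1 library from every old library, and every W-MN1 library from every H-MN1 library. It therefore coincides with MN1 status and, within the MN1 experiment, with genotype, and cannot be told apart from them. Among marrow cell markers, neutrophil genes dominated every library: the summed level of 10 of them was 68594 to 131104 CPM in the old groups and 16723 to 78350 CPM in the MN1 groups.

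The 6 genes lie on 4 chromosomes (mm10, GENCODE M21). Cdkn1b spans chr6:134920401-134925513 on the plus strand. The others lie on the minus strand: Cdkn1c at chr7:143458339-143461050, Cdkn2c at chr4:109660876-109667189 and Cdkn2d at chr9:21288410-21291407. Cdkn2a (chr4:89274471-89294653) and Cdkn2b (chr4:89306299-89311039) are neighbours separated by 11645 bp. Cdkn2a has 2 annotated transcripts whose starts are 12461 bp apart: the outer start gives the ARF protein and the inner one p16. A count per gene symbol does not separate them. Because Cdkn2a and Cdkn2b changed in the same comparison below, the stretches directly upstream of their 3 starts are shown, from RefSeq promoter sequences on GRCm38.p6, each read 5′ to 3′ on the minus strand. Capitals mark an E2F site (TTTCCCGC), a GC box (GGGCGG) and a CHR element (TTTGAA, here on the opposite strand).
Cdkn2a outer start, chr4:89294654-89294869: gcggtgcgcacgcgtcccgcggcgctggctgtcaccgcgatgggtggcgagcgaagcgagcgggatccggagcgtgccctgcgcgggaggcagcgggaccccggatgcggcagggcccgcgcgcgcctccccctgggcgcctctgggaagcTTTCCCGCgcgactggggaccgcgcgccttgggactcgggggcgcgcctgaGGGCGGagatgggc
Cdkn2a inner start, chr4:89282193-89282442: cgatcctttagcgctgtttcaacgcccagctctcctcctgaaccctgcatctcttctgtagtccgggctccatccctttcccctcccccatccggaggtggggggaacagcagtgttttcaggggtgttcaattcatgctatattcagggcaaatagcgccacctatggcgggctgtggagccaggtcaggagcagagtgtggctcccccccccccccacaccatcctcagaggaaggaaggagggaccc
Cdkn2b start, chr4:89311040-89311282: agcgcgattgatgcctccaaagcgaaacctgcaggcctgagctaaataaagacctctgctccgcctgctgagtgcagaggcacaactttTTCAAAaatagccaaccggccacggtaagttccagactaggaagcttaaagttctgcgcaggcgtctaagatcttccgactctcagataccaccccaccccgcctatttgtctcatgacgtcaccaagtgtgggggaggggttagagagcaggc

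The motifs were searched on both strands in the 250 bases before 32851 RefSeq starts, of which 7 belonged to 5 of the 6 genes (Cdkn1c had none in the table). TTTCCCGC was present in 0.895% of all windows and, among the CDK inhibitor genes, only before the outer start of Cdkn2a. GGGCGG was present in 32.7% of all windows and before Cdkn1b, Cdkn2d, the outer start of Cdkn2a and 1 of the starts of Cdkn2c. TTTGAA was present in 16% of all windows and, among the 6 genes, only before Cdkn2b. A second E2F site (TTTGGCGC, 0.417% of all windows), a forkhead site (GTAAACA, 3.17%) and an E-box (CACGTG, 6.02%) were found in none of the 7. CpG content also set the starts apart, with 40 CpG before the outer Cdkn2a start, 28 before Cdkn1b, 12 before Cdkn2b and 7 before the inner Cdkn2a start, against a median of 6 over all windows. These matches describe the letters in the windows and are not measured binding sites.

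**Figure D1:**
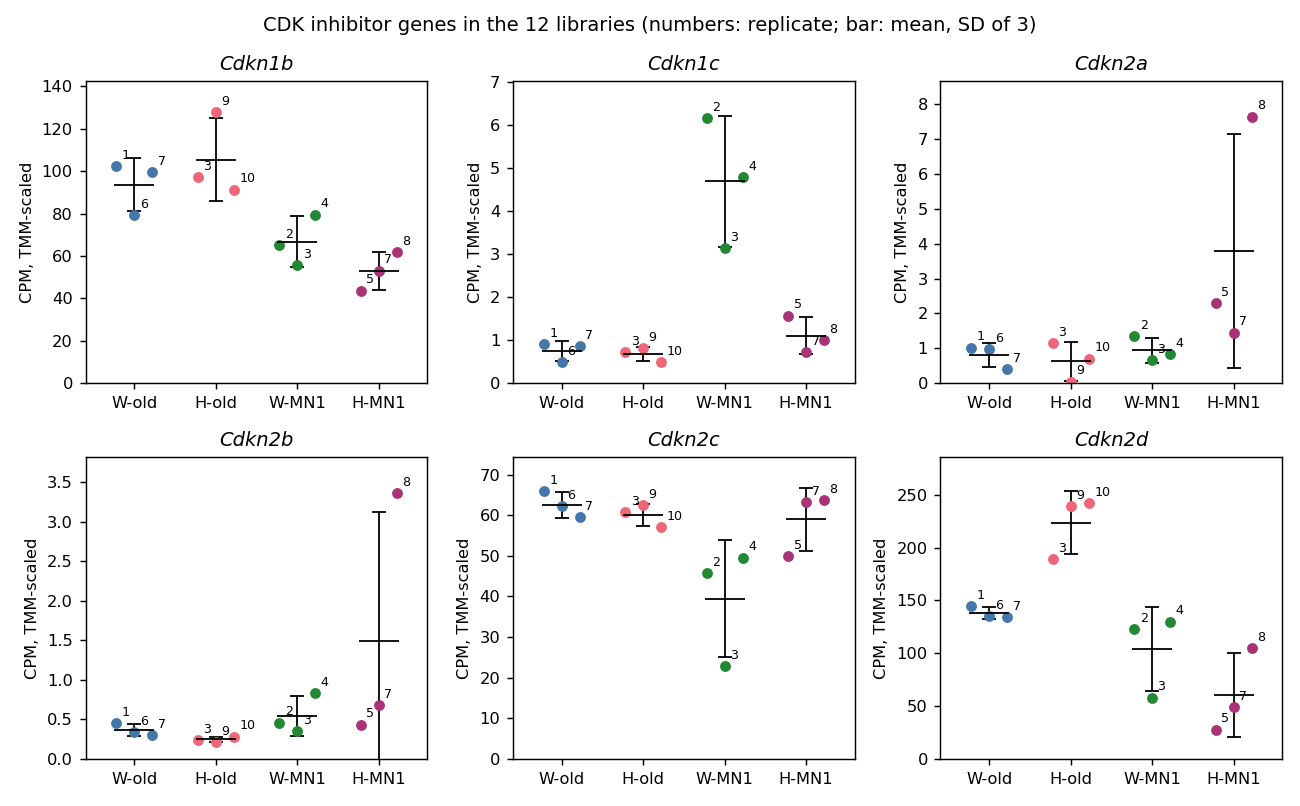
TMM-scaled CPM (y axis) of each of the 6 CDK inhibitor genes in every library (points), by group (x axis), with the group mean and SD over 3 libraries. Each panel has its own y axis from 0, which cuts the lower SD bar of Cdkn2b in H-MN1. Cdkn2d was higher in all 3 H-old libraries (189 to 242 CPM) than in any other library, Cdkn1c was highest in the 3 W-MN1 libraries (3.13 to 6.17 CPM), and the high Cdkn2a and Cdkn2b points of H-MN1 come from replicate 8.

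The expressed members differed widely in level. Comparing genes per length by the deposited TPM, a length-corrected level, Cdkn2d, Cdkn1b and Cdkn2c carried nearly all of the summed level of the 6 genes; CDK inhibitor genes outside this set do not enter the shares. Cdkn2d made up 59.7% ± 1.37 (SD, n = 3) of the summed TPM of the 6 genes in W-old, 70.0% ± 3.09 in H-old, 60.2% ± 4.95 in W-MN1 and 39.7% ± 11.4 in H-MN1. Cdkn2c made up 18.7% ± 0.603, 12.6% ± 1.16, 15.8% ± 0.156 and 35.4% ± 9.07 in the same order. Cdkn1b stayed between 16.9% and 21.05% in the group means. By TPM, Cdkn2d was the highest of the 6 in all libraries except H-MN1 replicates 5 and 7, where Cdkn2c was. The level of Cdkn2d was 3.19 ± 0.0327 times that of Cdkn2c in W-old, 5.61 ± 0.680 times in H-old, 3.82 ± 0.322 times in W-MN1 and 1.25 ± 0.735 times in H-MN1 (SD, n = 3). The lowest H-old ratio, 4.86, lay above the highest ratio of any other group, 4.09, and the highest H-MN1 ratio, 2.09, lay below the lowest ratio of any other group, 3.16. In W-old, the neighbours in the order Cdkn1b and Cdkn2c overlapped, at 53.9 ± 7.98 and 48.5 ± 1.11 TPM. Cdkn1c, Cdkn2a and Cdkn2b were low throughout: their group means ran from 0.233 ± 0.0379 TPM (Cdkn2b in H-old) to 7.23 ± 4.40 TPM (Cdkn2a in H-MN1).

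**Figure D2:**
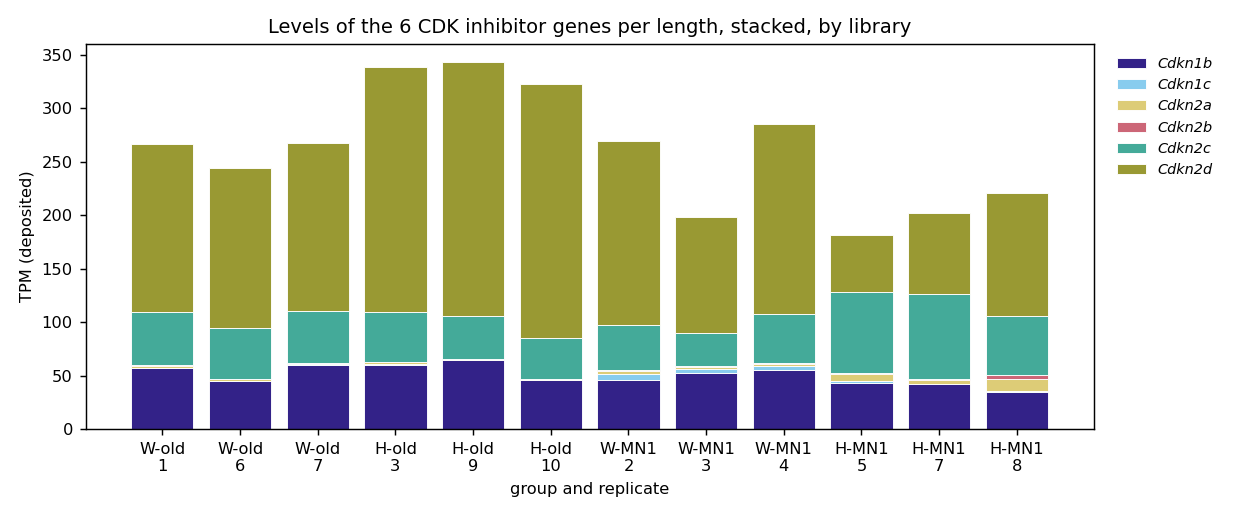
Deposited TPM (y axis, from 0) of the 6 CDK inhibitor genes stacked for each of the 12 libraries (x axis, by group and replicate). The sum was 260 ± 13.4 TPM in W-old, 335 ± 10.8 in H-old, 251 ± 46.5 in W-MN1 and 202 ± 19.6 in H-MN1 (SD, n = 3), and the Cdkn2d segment is tallest in H-old.

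Among the Cip/Kip genes, Cdkn1b fell in the knockout with MN1 against the knockout without it. Cdkn1b encodes p27, which binds cyclin E-CDK2 and is degraded as cells enter S phase. It stood at 102, 79.2 and 99.6 CPM in W-old replicates 1, 6 and 7, at 97.4, 128 and 91.3 CPM in H-old replicates 3, 9 and 10, at 65.2, 55.7 and 79.5 CPM in W-MN1 replicates 2, 3 and 4, and at 43.7, 53.1 and 61.9 CPM in H-MN1 replicates 5, 7 and 8. All H-MN1 libraries lay below all H-old libraries, whereas the 2 genotypes overlapped within each experiment and the wild-type groups overlapped narrowly, with 79.2 CPM in W-old replicate 6 and 79.5 CPM in W-MN1 replicate 4. H-MN1 was 1.99-fold below H-old, a log2 change of -0.996 ± 0.19 (SE; edgeR adjusted p = 0.00486). In this comparison of the knockout groups, 4 of the 6 genes passed the threshold of 0.05, against 37.9% of the 13937 genes tested, so a call was common among all genes. Of the 4, Cdkn2b passed the filter on low counts only through the MN1 libraries, so its call depends on its level there. The groups did not overlap for the same 4 members, Cdkn1b, Cdkn2a, Cdkn2b and Cdkn2d, and for 50.1% of all genes. The corresponding difference between the wild-type groups was -0.49 ± 0.19 (edgeR adjusted p = 0.156), or -0.75 (adjusted p = 0.0953) without W-MN1 replicates 2 and 4. The knockout difference was 0.19 ± 0.15 without MN1 (edgeR adjusted p = 0.384) and -0.32 ± 0.22 with it (edgeR adjusted p = 0.726), or -0.017 without those libraries. With any 1 library left out, Cdkn1b kept its fall in the knockout, with an edgeR adjusted p of 0.00368 to 0.0234.

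Cdkn1c, by contrast, was the 1 member that rose between the wild-type groups. It encodes p57, an imprinted gene product that is normally made from the maternal allele. It stood at 0.909, 0.485 and 0.865 CPM in W-old, at 0.722, 0.816 and 0.494 CPM in H-old, at 6.17, 3.13 and 4.79 CPM in W-MN1 and at 1.57, 0.726 and 1.00 CPM in H-MN1 (replicates in the order above). Every W-MN1 library lay above every other library, and H-old, W-old and H-MN1 overlapped. W-MN1 was 6.21-fold above W-old, a log2 change of 2.63 ± 0.43 (edgeR adjusted p = 0.0133). Of the 13937 genes tested, 3.58% passed in this comparison. The wild-type groups did not overlap for Cdkn1c, Cdkn2c and Cdkn2d, and for 37.8% of all genes. The call was lost without W-old replicate 6 (edgeR adjusted p = 0.0696) or replicate 7 (0.0533), with log2 changes of 2.40 and 2.75. With W-MN1 replicates 2 and 4 left out, the remaining library gave 2.06 ± 0.53 (edgeR adjusted p = 0.0293), assuming that it varies like the other groups. Cdkn1c differed by -0.10 ± 0.39 between the old genotypes (edgeR adjusted p = 0.869) and by 0.69 ± 0.43 between the knockout groups (adjusted p = 0.215).

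Within the MN1 experiment, Cdkn1c was 4.19-fold lower in the knockout, a log2 difference of -2.07 ± 0.48 that did not pass (edgeR adjusted p = 0.243, unadjusted p = 0.00416). None of the 6 genes passed there, and the background was 0% of 13525 genes with edgeR, 6 genes with limma and 565 with DESeq2. An unadjusted p under 0.05 was found for 1353 genes, or 10% of those tested, and for Cdkn1c and Cdkn2a among the 6. Cdkn1c passed in DESeq2 (-2.09 ± 0.51, adjusted p = 0.00235), when all 12 libraries shared 1 estimate of the spread (-2.08, edgeR adjusted p = 0.0246), and without W-MN1 replicate 3 (-2.30, edgeR adjusted p = 0.0420). Without W-MN1 replicates 2 and 4 the difference was -1.44 ± 0.65 (edgeR adjusted p = 0.9999). The 2 low-Mn1 wild-type libraries, 6.17 and 4.79 CPM, were thus the highest for Cdkn1c, and the Mn1-expressing wild-type library, at 3.13 CPM, was above all 3 knockout libraries.

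Several other quantities moved with Cdkn1c, and their part in its difference was not tested. The 3 genes most like it over the 12 libraries, by Pearson correlation of log2(CPM + 1) among 10078 candidate genes, were the Y-linked Kdm5d (0.947), Ddx3y (0.929) and Eif2s3y (0.928). Within the 6 old libraries, where these genes were at or near 0, the same correlations were -0.16, -0.03 and 0.39. Cdkn1c is also made by stromal and endothelial cells. The summed level of 5 stromal and bone markers was 75.0 to 88.3 CPM in W-old, 26.5 to 50.2 in H-old, 60.9 to 161 in W-MN1 and 33.4 to 66.3 in H-MN1, and that of 4 endothelial markers, most of it Pecam1, was 60.4 to 70.5, 34.7 to 55.8, 57.5 to 117 and 59.5 to 129 CPM. Both sums overlapped between W-MN1 and W-old. The endothelial genes Cdh5 and Kdr were lower in H-MN1 (1.05 ± 0.480 and 1.09 ± 0.281 CPM) than in W-MN1 (3.79 ± 1.59 and 3.12 ± 0.699 CPM), without passing with edgeR (adjusted p = 0.343 and 0.284), and stood at 7.19 ± 0.340 and 3.65 ± 0.401 CPM in W-old. The other endothelial markers, Pecam1 and Emcn, stood at 72.4 ± 33.8 and 1.35 ± 0.545 CPM in W-MN1. In H-MN1 they stood at 87.6 ± 35.8 and 1.007 ± 0.494 CPM, so Pecam1 went the other way. None of the 4 passed between these groups. In bulk marrow, fewer cells of a type and less RNA per cell cannot be told apart.

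Of 13 measured imprinted neighbours of Cdkn1c on chromosome 7, none passed with edgeR in the comparison of the wild-type groups, in which 10 were tested. Igf2, a paternally expressed growth factor, stood at 0.238 ± 0.121 CPM in W-old and 1.41 ± 0.846 CPM in W-MN1 (log2 difference 2.52, edgeR adjusted p = 0.0748). The noncoding Kcnq1ot1, whose transcription silences the paternal Cdkn1c, stood at 38.9 ± 5.57 and 64.4 ± 12.9 CPM (0.73, edgeR adjusted p = 0.295). Osbpl5 and Cd81 fell with the knockout in the old groups, by 1.47 and 0.55 on the log2 scale, and were 2.96 and 0.45 higher in H-MN1 than in H-old, all past the threshold with edgeR. Nap1l4, Cars, Tssc4, Tspan32, Slc22a18 and Ascl2 passed in no comparison, and Kcnq1, Phlda2 and H19 stayed under 0.2 CPM in every group mean. An annotated antisense gene, Gm44732, overlaps Cdkn1c; the kit named in the labels keeps strand, but the strand setting used in counting is not given in the sources used here.

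**Figure D3:**
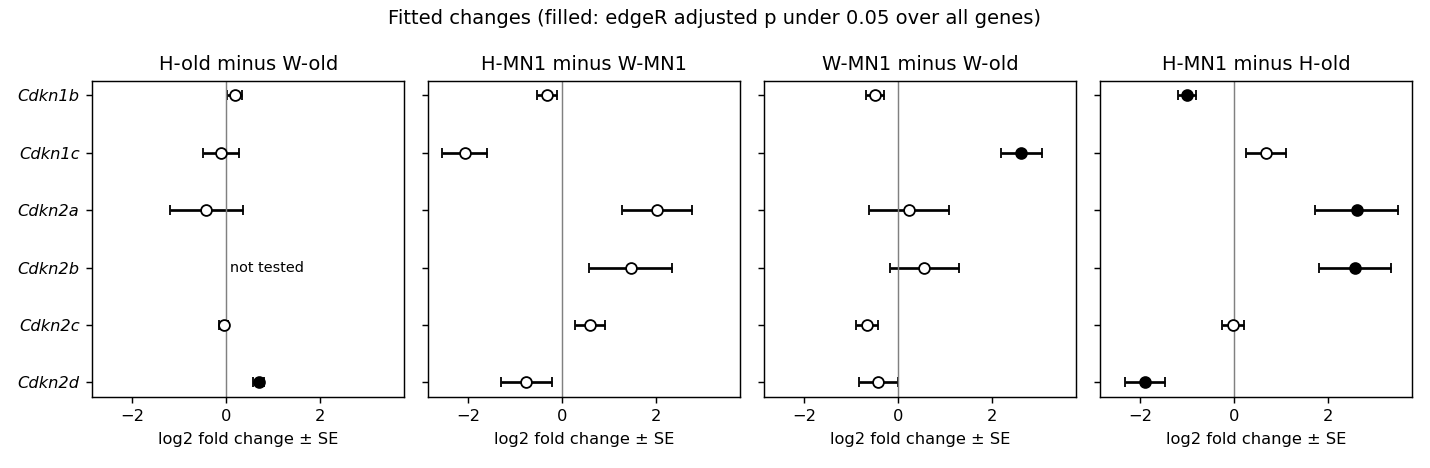
Log2 fold changes (x axis) with their SE for each CDK inhibitor gene (y axis) in 4 comparisons (panels), from edgeR; filled points had an adjusted p under 0.05, and Cdkn2b was not tested in the old groups. Cdkn2d passed in the old knockout (0.71) and Cdkn1c between the wild-type groups (2.63), Cdkn1b, Cdkn2d, Cdkn2a and Cdkn2b passed between the knockout groups, and none passed in the knockout with MN1.

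Among the INK4 genes tested, Cdkn2d was the member that passed between the genotypes in the aged experiment. It encodes p19, an inhibitor of CDK4 and CDK6 distinct from the ARF protein of Cdkn2a. It stood at 145, 135 and 134 CPM in W-old, at 189, 239 and 242 CPM in H-old, at 123, 58.0 and 130 CPM in W-MN1 and at 27.8, 48.8 and 105 CPM in H-MN1. The H-old libraries were all above the W-old libraries, and the H-MN1 libraries were all below the old ones of either genotype, while the MN1 groups overlapped and spread widely. H-old was 1.63-fold above W-old, a log2 change of 0.71 ± 0.12 (edgeR adjusted p = 0.00309). Cdkn2d was the 1 member called among the 5 tested in this comparison, in which 31.4% of all 12771 genes passed and 15.6% passed as higher. Among these 5, Cdkn2d was also the 1 member whose old groups did not overlap, against 48.3% of all genes tested. The old groups of Cdkn2b, which was not tested, did not overlap either (0.305 to 0.455 CPM in W-old, 0.215 to 0.282 CPM in H-old). The call held with each library left out in turn (edgeR adjusted p from 0.00508 to 0.0158), but not when the more variable MN1 libraries shared the estimate of the spread (0.69 ± 0.41, adjusted p = 0.351).

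Between the knockout groups the direction was the opposite. H-MN1 was 3.70-fold below H-old for Cdkn2d, a log2 change of -1.89 ± 0.43 (edgeR adjusted p = 0.00864), and this fall held with each library left out (adjusted p from 0.00192 to 0.0360). The wild-type groups differed by -0.41 ± 0.41 (edgeR adjusted p = 0.55), and by -1.25 ± 0.59 (adjusted p = 0.156) with W-MN1 replicates 2 and 4 left out. Within the MN1 experiment the knockout difference was -0.76 ± 0.55 (edgeR adjusted p = 0.738), and with those libraries left out it turned to 0.12 ± 0.77. The single Mn1-expressing wild-type library (58.0 CPM) lay inside the knockout range. The difference between the knockout effects of the 2 experiments was -1.47 ± 0.59 (edgeR adjusted p = 0.173). It passed without W-MN1 replicate 3 (-1.78, edgeR adjusted p = 0.0385) and without H-MN1 replicate 8 (-2.13, adjusted p = 0.0323). Over all genes, 463 passed with every library kept and 53 to 3337 with a library left out. Without W-MN1 replicates 2 and 4 the Cdkn2d difference was -0.66.

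Neutrophil transcripts moved with Cdkn2d across the libraries, and their part in its differences was not tested. The summed level of the 10 neutrophil markers was 94255, 84646 and 68594 CPM in W-old, 93365, 131104 and 120723 CPM in H-old, 62070, 28085 and 72612 CPM in W-MN1 and 16723, 45343 and 78350 CPM in H-MN1. The lowest 2 Cdkn2d libraries, H-MN1 replicates 5 and 7, and W-MN1 replicate 3 were also the lowest 3 for the neutrophil sum. In the old knockout, where 31.4% of all genes passed, 5 of the 10 neutrophil markers and 4 of 5 neutrophil precursor markers rose with edgeR. All 11 pre-B and B cell markers fell there. In H-MN1 against H-old, where 37.9% of all genes passed, 6 of the 10 neutrophil markers and all 5 precursor markers fell. All 8 stem and progenitor markers rose in that comparison. The genes most like Cdkn2d over the 12 libraries were Unc119 (Pearson 0.995), Litaf (0.993) and Gucd1 (0.992), and within the 6 old libraries these correlations were 0.97, 0.92 and 0.97. Those of Cdkn1b were Cnr2 (0.981), a cannabinoid receptor, and the survival genes Mcl1 (0.966) and Birc3 (0.966). Cdkn1b and Cdkn2d themselves correlated at 0.905 over the 12 libraries, which differ in group and cell make-up.

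**Figure D4:**
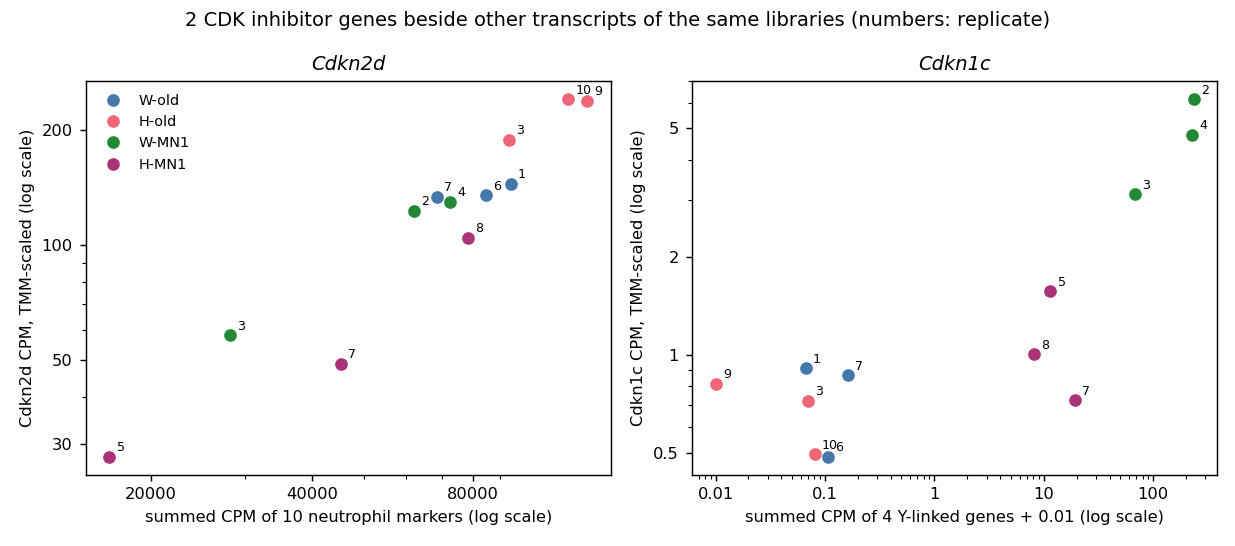
TMM-scaled CPM of Cdkn2d against the summed CPM of 10 neutrophil markers (left) and of Cdkn1c against the summed CPM of 4 Y-linked genes plus 0.01 (right), both axes logarithmic, 1 point per library, coloured by group and numbered by replicate. H-MN1 replicate 5 is lowest for Cdkn2d (27.8 CPM) and for neutrophil markers (16723 CPM), and the 3 W-MN1 libraries are highest for Cdkn1c and for Y-linked genes.

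Cdkn2c showed no call in any of the 5 comparisons with edgeR. It encodes p18, an inhibitor of CDK4 and CDK6 that B cells need to become plasma cells. It stood at 66.0, 62.3 and 59.6 CPM in W-old, at 60.7, 62.4 and 57.0 CPM in H-old, at 45.7, 22.9 and 49.6 CPM in W-MN1 and at 49.99, 63.1 and 63.7 CPM in H-MN1. The old groups overlapped, while all 11 B cell markers and 5 of 6 plasma cell markers fell between them, where 31.4% of all genes passed. The W-MN1 libraries lay below all others, narrowly so for replicates 2 and 4. The knockout difference was -0.05 ± 0.09 in the old groups (edgeR adjusted p = 0.744) and 0.60 ± 0.32 in the MN1 groups (adjusted p = 0.631). The latter was 0.31 without W-MN1 replicate 3 and 1.42 without W-MN1 replicates 2 and 4 (adjusted p = 0.364 and 0.9999). In the MN1 groups Cdkn2c was 1 of 3 members without overlap, with Cdkn1c and Cdkn2a, against 15.6% of all genes. W-MN1 differed from W-old by -0.67 ± 0.24 (edgeR adjusted p = 0.124). With W-MN1 replicates 2 and 4 left out this became -1.45. That value rests on 1 Mn1-expressing wild-type library, which has no spread of its own. It stood at 22.9 CPM, against 59.6 to 66.0 CPM in W-old. Between the knockout groups the difference was -0.03 ± 0.23 (edgeR adjusted p = 0.933). Its sign depends on scaling: with library totals in place of TMM it was 0.34 ± 0.19 (adjusted p = 0.166), while the median of all genes shifted by 0.37.

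The deposited values also carry a length for each gene, and that of Cdkn2c set H-MN1 apart. RSEM divides counts by an effective length that averages the transcripts of a gene by their estimated abundance, and this length follows from the deposited count and FPKM (counts corrected for length and library size). This measure was looked at after the values were seen. For Cdkn2c it was 1736, 1740 and 1720 bases in W-old, 1865, 1803 and 1732 in H-old, 1789, 1597 and 1753 in W-MN1 and 1491, 1449 and 1500 in H-MN1. All 3 H-MN1 libraries lay below all other libraries, and W-MN1 replicate 3 was the next lowest. The log2 ratio of H-MN1 to W-MN1 means was -0.21, against a median of 0.002 over 6794 genes, of which 0.0589% had a lower one. Between the old groups the ratio of H-old to W-old went the other way. It was 0.055, against a median of -0.003, and 99.3% of genes had a lower one. The W-MN1 mean includes the low-Mn1 libraries, at 1789 and 1753 bases. The Mn1-expressing replicate 3, at 1597 bases, lay closer to H-MN1 than they did. The same measure varied little for Cdkn1b (2303 to 2336 bases) and Cdkn2d (1167 to 1197 bases). Cdkn2c has 2 annotated coding transcripts, of 1106 and 2471 bases, so its reads in H-MN1 were assigned more to shorter transcript models. The annotation used in the deposited counting is not given in the sources used here, and the rise of the Cdkn2c share of TPM in H-MN1 includes this shorter length, whereas its CPM does not.

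**Figure D5:**
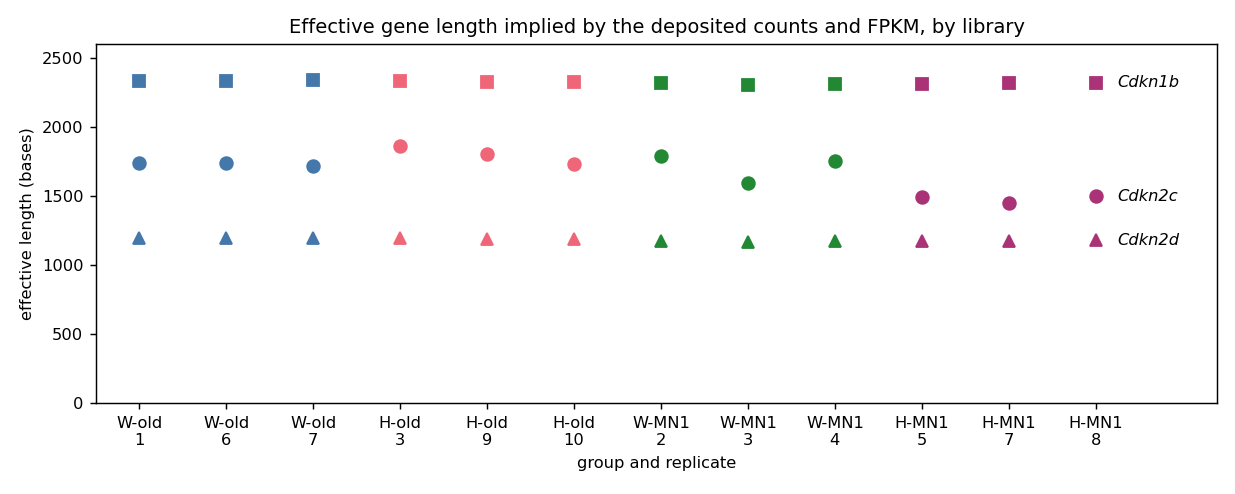
Effective gene length in bases (y axis, from 0) implied by the deposited counts and FPKM, for Cdkn1b (squares), Cdkn2c (circles) and Cdkn2d (triangles) in each of the 12 libraries (x axis, coloured by group). Cdkn2c lies at 1449 to 1500 bases in H-MN1 and at 1597 to 1865 bases in the other groups, while Cdkn1b and Cdkn2d stay level.

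Cdkn2a and Cdkn2b rose together in H-MN1 against H-old, from very low levels. The p16 and p15 proteins both inhibit CDK4 and CDK6, and ARF acts on a separate tumour suppressor route. Cdkn2a stood at 1.02, 0.971 and 0.407 CPM in W-old, at 1.14, 0.0429 and 0.706 CPM in H-old, at 1.34, 0.661 and 0.831 CPM in W-MN1 and at 2.31, 1.45 and 7.64 CPM in H-MN1. All H-MN1 libraries were above all others, and replicate 8 was far above the rest. The lowest value, in H-old replicate 9, was 1 count, with an exact 95% Poisson interval of 0.0253 to 5.57 counts that covers counting error only. H-MN1 exceeded H-old by 2.62 ± 0.89 on the log2 scale (edgeR adjusted p = 0.0389). The call was lost without H-MN1 replicate 8 (1.61, adjusted p = 0.129), replicate 5 (2.87, 0.0534), H-old replicate 9 (2.02, 0.0871) or H-old replicate 10 (2.72, 0.0874).

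Cdkn2b stood at 0.455, 0.340 and 0.305 CPM in W-old, at 0.241, 0.215 and 0.282 CPM in H-old, at 0.460, 0.348 and 0.831 CPM in W-MN1 and at 0.434, 0.683 and 3.36 CPM in H-MN1. The H-MN1 libraries were all above the H-old libraries but overlapped W-MN1 and W-old, and replicate 8 was again the highest. H-MN1 exceeded H-old by 2.58 ± 0.76 (edgeR adjusted p = 0.0240), which was lost without H-MN1 replicate 8 (1.17, adjusted p = 0.0821), H-old replicate 3 (2.57, 0.0706), replicate 9 (2.48, 0.0853) or replicate 10 (2.68, 0.0582). Cdkn2b entered the fit of 12 libraries only through the MN1 libraries, with 10 to 77 counts against 4 to 8 in the old ones. Its call against H-old thus rests on a filter that its level in the MN1 libraries met. It did not pass the filter on low counts in the old groups alone and was not tested there. In that comparison Cdkn2a differed by -0.41 ± 0.78 (edgeR adjusted p = 0.717), or by 0.24 without H-old replicate 9. Within the MN1 experiment the knockout differences were 2.03 ± 0.74 for Cdkn2a (edgeR adjusted p = 0.42, unadjusted p = 0.0304) and 1.47 ± 0.88 for Cdkn2b (adjusted p = 0.67). They were 1.003 and 0.038 without H-MN1 replicate 8, and 2.58 and 2.14 without W-MN1 replicates 2 and 4. The wild-type groups differed by 0.24 for Cdkn2a and 0.57 for Cdkn2b (edgeR adjusted p = 0.88 and 0.649), and without W-MN1 replicates 2 and 4 by -0.27 and -0.06.

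Of the measured neighbours of the locus, Mtap was expressed and Dmrta1 hardly was. Mtap, which encodes a methionine salvage enzyme and lies beside Cdkn2a, stood at 16.5 ± 1.25 CPM in W-old, 16.6 ± 0.871 in H-old, 32.5 ± 5.49 in W-MN1 and 27.8 ± 3.79 in H-MN1. It rose in both comparisons of MN1 with old groups, by 0.98 ± 0.16 in wild type and 0.74 ± 0.16 in the knockout (edgeR adjusted p = 0.0138 and 0.0075). Dmrta1, on the other side of the locus, stayed at 0.464 CPM or less in every group mean and did not pass the filter on low counts. Over the 12 libraries Cdkn2a and Cdkn2b correlated at 0.865, and both were highest in H-MN1 replicate 8. The genes most like Cdkn2a were Spns1 (0.896), Plpp2 (0.890) and Eral1 (0.886), those most like Cdkn2b were Dok1 (0.953), Cops7b (0.948) and Trpv2 (0.947), and those most like Cdkn2c were Ncam1 (0.911), Arl11 (0.859) and Cd300ld (0.854). Within the 6 old libraries the correlations were 0.79, 0.62 and 0.66 for Cdkn2a, 0.76, -0.048 and 0.012 for Cdkn2b, and -0.33, 0.64 and 0.45 for Cdkn2c, in the same order. H-MN1 replicate 8 was also the highest library for each of the genes listed for Cdkn2a and Cdkn2b. Dok1, for example, stood at 69.5 CPM there and at 27.8 to 40.9 CPM elsewhere. How far these correlations depend on that library was not tested.

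No CDK inhibitor gene passed the test of the difference between the knockout effects of the 2 experiments, in which 3.32% of 13937 genes passed with edgeR. An unadjusted p under 0.05 was found for 22.2% of genes, and for Cdkn1c and Cdkn2d among the 6. The largest difference below 0 was that of Cdkn1c, at -1.95 ± 0.60 (edgeR adjusted p = 0.0952, and 0.0340 with DESeq2), and it was -1.40 ± 0.70 (edgeR adjusted p = 0.476) without W-MN1 replicates 2 and 4. It passed without W-MN1 replicate 3 (-2.20, edgeR adjusted p = 0.0206). The number of all genes that passed ran from 53 to 3337 with a library left out. For Cdkn2a, Cdkn2b and Cdkn2c the differences were 2.38 ± 1.22, 2.01 ± 1.06 and 0.64 ± 0.33, and for Cdkn1b it was -0.51 ± 0.27 (edgeR adjusted p from 0.275 to 0.293 for these 4). Without H-MN1 replicate 8 those of Cdkn2a and Cdkn2b were 1.37 and 0.60, and without W-MN1 replicate 3 that of Cdkn2c was 0.34. Without W-MN1 replicates 2 and 4 the differences were 2.89, 2.63 and 1.39 for these INK4 genes and -0.28 for Cdkn1b (edgeR adjusted p from 0.0644 to 0.783).

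The kinases, cyclins and regulators that these inhibitors act with were read from lists of known pathway members. In the old knockout, where 31.4% of all genes passed, 3 of 8 G1 partners rose with edgeR and 1 fell: the kinases Cdk6 (0.65 on the log2 scale) and Cdk2 (0.44) and the cyclin Ccnd3 (0.42) rose, and the cyclin Ccne1 fell by 0.54. The median over the 8 was -0.13, against -0.02 over all genes. Among 13 pocket protein and E2F genes, 5 rose and 3 fell, with E2f2 (0.59) and the E2F partner Tfdp1 (0.52) among the former and Tfdp2 (-0.84) and E2f5 (-1.03) among the latter. Of 16 E2F targets and proliferation genes, 2 rose, Mki67 (0.49) and Plk1 (0.43), and 1 fell. Among 4 S to M partners tested, Ccnb1 rose (0.35).

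Regulators of the inhibitors were read against the same 31.4% of all genes in the old knockout. Of 17 transcription and chromatin factors known to act on CDK inhibitor genes, 6 rose and 2 fell with edgeR. Foxo1, an activator of Cdkn1b, fell by 1.93 on the log2 scale, from 33.7 ± 9.27 to 8.67 ± 2.83 CPM, while Foxo3, another activator of Cdkn1b that was named after its values were seen, rose by 0.53 (edgeR adjusted p = 0.0188), from 37.3 ± 0.599 to 53.2 ± 9.43 CPM. Kdm6b (0.83), a demethylase that opposes Polycomb at Cdkn2a, and Ets2 (1.11) and Gfi1 (0.78) rose. Of 13 Polycomb genes, 5 fell and 1 rose, with Bmi1 (-0.58), Cbx2 (-1.09), Cbx7 (-1.46) and Ezh2 (-0.35) lower. Cdkn2a did not pass in this comparison, and Cdkn2b was not tested. All 11 pre-B and B cell markers fell in the same comparison, and the part of cell make-up in these differences was not tested. Among 9 genes of p27 turnover, a share near that of all genes passed: Ubac1 (-0.94) and Rnf123 (-0.48), subunits of a ubiquitin ligase for p27, fell and the kinase Uhmk1 (0.54) rose. The list medians were 0.19 for the transcription factors, -0.28 for Polycomb and -0.12 for p27 turnover.

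In H-MN1 against H-old, partners and targets were more often lower than higher among those that passed, as 37.9% of all genes did. Of 8 G1 partners, 5 fell and 1 rose with edgeR, with Ccne1 (-1.55), Ccne2 (-1.58) and Cdk2 (-0.51) lower and Cdk4 (0.65) higher. Among S to M partners 3 of 4 fell, namely Ccna2 (-1.19), Ccnb1 (-0.99) and Cdk1 (-0.84). Among pocket protein and E2F genes 6 of 13 fell and 2 rose, with E2f2 at -2.16, E2f8 at -0.86 and Tfdp1 at -0.82. Of the 16 E2F targets, 7 fell and none rose, a share near that of all genes that passed, with Mki67 at -1.40, Rrm2 at -1.38, Top2a at -1.15 and Pcna at -0.81. The medians of these lists were -0.84, -0.92, -0.49 and -0.55, against 0.08 over all genes.

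Among the factors that act on the inhibitors, 7 of 17 fell and 1 rose in H-MN1 against H-old, with Ets2 (-1.65), Foxo3 (-0.94), an activator of Cdkn1b, Max (-0.96) and Smad2 (-0.46) lower. Foxo1, the other activator of Cdkn1b named above, did not pass (0.19, edgeR adjusted p = 0.626), and the 1 that rose was Myc (1.21). Both were named here after their values were seen. Of 13 Polycomb genes, 3 rose, Bmi1 (1.54), Cbx2 (1.68) and Ring1 (0.77), and Eed fell (-0.56), in the same comparison in which Cdkn2a and Cdkn2b rose. Of 9 p27 turnover genes only Rnf123 passed (0.39). The stem and progenitor markers summed to 110 to 140 CPM in H-old and 1751, 1467 and 428 CPM in H-MN1 replicates 5, 7 and 8. In wild type they summed to 1768 CPM in the Mn1-expressing W-MN1 replicate 3, and to 178 and 116 CPM in replicates 2 and 4. The highest library for Cdkn2a and Cdkn2b, replicate 8, was thus the lowest of H-MN1 for these markers. Their part in the differences was not tested.

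In the remaining comparisons few of these genes passed. Between the wild-type groups E2f3 rose (0.66 ± 0.13, edgeR adjusted p = 0.0265). No G1 or S to M partner, E2F target, p27 turnover, transcription factor or Polycomb gene passed. The W-MN1 means include the low-Mn1 replicates 2 and 4. Summed E2F targets stood at 2683 CPM in W-MN1 replicate 3 and at 4505 and 4654 CPM in replicates 2 and 4. They stood at 2381 to 2829 CPM in H-MN1. S to M partners summed to 353, 650 and 672 CPM in replicates 3, 2 and 4, and to 293 to 477 CPM in H-MN1. G1 partners summed to 1397, 1184 and 1145 CPM, and to 1248 to 1348 CPM, in the same order. No list gene passed in the MN1 knockout comparison, in which no gene at all did with edgeR. In the difference of knockout effects E2f8 (-1.14), Mki67 (-1.41) and Top2a (-1.28) passed as lower. Among 4 genes that inhibit CDKs in a wider sense, Hexim1, an inhibitor of the elongation kinase P-TEFb, fell between W-old and W-MN1 (-1.14 ± 0.12, edgeR adjusted p = 0.00271) and between H-old and H-MN1 (-1.02 ± 0.12, adjusted p = 0.000989). It stood at 105 ± 10.3 CPM in W-old, 96.6 ± 3.65 in H-old, 47.7 ± 2.46 in W-MN1 and 47.7 ± 5.74 in H-MN1. Cdkn3, a phosphatase that acts on CDK2, was lower in H-MN1 than in H-old (-1.08, edgeR adjusted p = 0.0494).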

How the data were processed

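Per the submitters' processing notes, RSEM 1.2.28 with Bowtie2 2.3.4.3 and the mm10 genome were used; the annotation is not given in the sources used here. The deposited tables, 1 for the aged and 1 for the MN1 libraries, hold expected counts, TPM and FPKM per gene symbol. Expected counts were rounded to whole numbers; those of the 6 genes were whole as deposited. In R 4.3.3, genes were filtered by filterByExpr (minimum count 10), TMM-scaled and then compared by the robust quasi-likelihood F test of edgeR 4.0.16, with Benjamini-Hochberg adjustment over all genes tested and a threshold of 0.05. Knockout effects were fitted on the 6 libraries of their own table, and the other comparisons were contrasts of 4 group means over all 12 libraries. CPM printed here are TMM-scaled over the 12 libraries. TPM was used to compare genes, and FPKM for the share alternative and the effective length. The fits of the knockout effects were tried on counts simulated with the spread that the model itself estimated, and the outcome is not given here. The contrasts over all 12 libraries were not tried in this way.

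The genes, lists and rules were chosen with earlier results of these data known. Named genes are all 6 members, the 3 most correlated genes with a mean of at least 5 CPM, up to 4 genes with the smallest adjusted p per pathway list, and all neighbours; a gene that this rule names is not reported here. Alternatives were DESeq2 1.42.0, limma 3.58.1 (trend), other scaling, filters, shared spread, each replicate left out, and W-MN1 replicates 2 and 4 left out. Library totals of 16544407 to 28409046 counts left Cdkn1c, Cdkn2a and Cdkn2b at 7 to 161, 1 to 175 and 4 to 77 counts per library. Motifs were counted in RefSeq promoters (GRCm38.p6).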

Additional observations from a re-analysis of the deposited data

How the results depend on the processing

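No paired analysis was possible because the 2 groups of each comparison share no replicate number, and in the difference of effects, over 4 groups, no pair of groups shares more than 1. Of 407 recomputed values of single CDK inhibitor genes, 375 kept their direction and side of the threshold, 13 changed sign, 8 newly passed and 11 no longer passed. The number of the 6 genes called in the old knockout was 1 with each library left out and 0 when all 12 libraries shared the spread. In the MN1 knockout comparison it was 1 with DESeq2 and 1 with the shared spread, both Cdkn1c, and 0 to 1 with a library left out. In the difference of effects it was 1 with DESeq2 and 0 to 2 with a library left out. Between the wild-type groups it was 0 to 1 with a library left out, and between the knockout groups it was 2 to 4. The cause was not tested, apart from the smaller number of libraries where some were left out.

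Every change of sign concerned a difference that did not pass. With library totals in place of TMM, the old knockout difference of Cdkn1b was -3.10e-05 and the difference of Cdkn2c between knockout groups 0.34. Without W-MN1 replicates 2 and 4, the MN1 knockout difference of Cdkn2d was 0.12, and the wild-type differences of Cdkn2a and Cdkn2b were -0.27 and -0.064. With a library left out, the old knockout differences ran from -0.35 to 0.073 for Cdkn1c, -1.29 to 0.24 for Cdkn2a and -0.077 to 0.0046 for Cdkn2c. The wild-type difference of Cdkn2a ran from -0.090 to 0.45, and the knockout-group difference of Cdkn2c from -0.092 to 0.056.

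Over all genes, 4008 passed in the old knockout (818 with shared spread, 2402 to 4599 with a library left out) and 0 in the MN1 knockout (565 with DESeq2, 6 with limma, 464 with shared spread, 0 to 896). The difference of effects had 463 (1685 with DESeq2, 40 without W-MN1 replicates 2 and 4, 53 to 3337), the wild-type groups 499 (1791, 2465, 78 to 397) and the knockout groups 5281 (2515 to 7366 with a library left out). Without TMM, medians of all genes shifted by -0.18, 0.02, 0.21, 0.16 and 0.37 in the order old knockout, MN1 knockout, difference, wild-type groups and knockout groups. Low counts limit Cdkn1c (7 to 161 per library), Cdkn2a (1 to 175) and Cdkn2b (4 to 77).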
